A study of Mus musculus with 8 samples.

Results

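Transcripts of the T-cell receptor complex, its coreceptors and related T-cell genes were examined in RNA-seq libraries of sorted mouse natural killer (NK) cells. The genes were taken by symbol from the read counts of every library: the CD3 chains Cd3d, Cd3e and Cd3g, the coreceptors Cd4, Cd8a and Cd8b1, the surface receptors Cd5, Cd6 and Cd28, and the transcription factor Bcl11b. All 10 were listed among 48321 gene symbols. The cells were sorted as CD45+ TCRb- NK1.1+ from lung and spleen of C57/Bl6 mice. The gate thus removes cells that carry an alpha-beta T-cell receptor on their surface. Of gamma-delta T cells it removes those without NK1.1 and does not remove those that carry NK1.1. Per organ, 2 libraries came from WT mice and 2 from KO mice, in which a CRISPR/Cas9 deletion removed the proximal enhancer of Ccl5 (Ccl5-PE) from both alleles of the germline, so every cell of the KO mice carries it. Mice were of mixed sexes, and the methods give an age range only for the study as a whole. The labels give neither the age nor the number of mice behind a library. The methods state that mouse lines were housed and bred separately, so the deletion and the line cannot be told apart.

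The T-cell receptor reaches the surface of a T cell only together with the CD3 chains gamma, delta and epsilon and the zeta chain (Cd247), which pass its signal on. CD4 and CD8 bind the MHC molecule that the receptor recognises, CD28 delivers the costimulatory signal, and CD5 and CD6 tune the response. NK cells carry no T-cell receptor but share the zeta chain and much of the downstream machinery, and transcripts of single CD3 chains are known in NK cells.

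The read total per library ran from 3132963 to 26482366, and both extremes were spleen KO libraries. Levels are given as CPM, that is, relative to a common library size set by the TMM method, with the SD of the 2 libraries of a group. At these depths 3 reads corresponded to between 0.115 and 0.979 CPM. Differences between groups were tested in edgeR (quasi-likelihood, with p-values adjusted over 12595 genes after Benjamini and Hochberg), and a gene was called at an adjusted p under 0.05. Nothing states that the libraries came from separate mice, so p-values measure only the spread between these libraries, which may be technical. As a check of the labels, Ccl5 was at 19518 and 18350 CPM in WT lung and at 2992 and 3195 CPM in KO lung. In spleen it was at 16679 and 15664 CPM in WT and at 2676 and 2432 CPM in KO. The 12 NK cell markers examined, such as Ncr1 and Klrb1c, summed to between 40165 and 56345 CPM in every library. Most of each sum was Gzma (15278 to 25399 CPM) and Nkg7 (8674 to 13056 CPM). In bulk RNA, fewer cells of a type and less RNA per cell cannot be told apart.

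Of the 10 genes, 5 passed the filter on low counts and were tested (Cd3d, Cd3e, Cd3g, Cd28 and Bcl11b). The other 5 (Cd4, Cd8a, Cd8b1, Cd5 and Cd6) had at most 9 reads in any library.

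**Figure D1:**
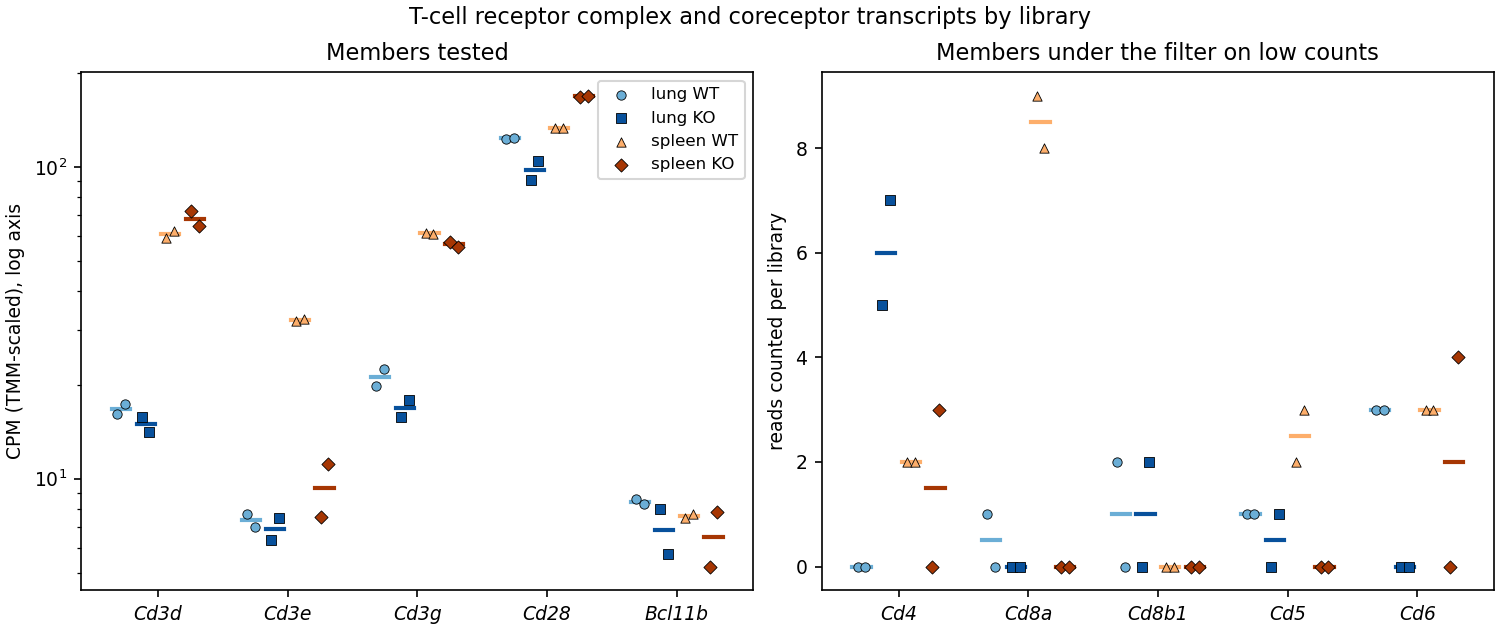
Each symbol is 1 library, and bars are means of the 2 libraries of a group. Left, TMM-scaled CPM on a log axis for the 5 genes tested. Right, raw reads for the 5 genes under the filter. Cd3d and Cd3g were near 60 CPM in spleen and near 20 CPM or below in lung, and Cd3e stood apart from them in KO spleen.

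The 3 CD3 chain genes lie side by side on chromosome 9 (GRCm38): Cd3g at chr9:44969572-44980431 on the minus strand, Cd3d at chr9:44981786-44987339 on the plus strand and Cd3e at chr9:44998740-45009627 on the minus strand. Cd3g and Cd3d are transcribed away from each other from starts 1355 bases apart, and Cd3e ends 11401 bases beyond the end of Cd3d. The 250 bases before the RefSeq start of each of these genes are shown on its own strand (RefSeq, GRCm38.p6), as a description of the reference sequence. The windows are chr9:44980432-44980681 for Cd3g, chr9:44981536-44981785 for Cd3d and chr9:45009612-45009861 for Cd3e. Capitals mark matches on either strand to AGGAAG, a core sequence bound by ETS factors.
Cd3g: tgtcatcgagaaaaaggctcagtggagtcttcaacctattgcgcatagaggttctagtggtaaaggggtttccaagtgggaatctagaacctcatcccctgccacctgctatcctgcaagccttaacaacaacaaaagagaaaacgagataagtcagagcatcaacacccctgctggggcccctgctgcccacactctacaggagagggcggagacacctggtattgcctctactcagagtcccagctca
Cd3d: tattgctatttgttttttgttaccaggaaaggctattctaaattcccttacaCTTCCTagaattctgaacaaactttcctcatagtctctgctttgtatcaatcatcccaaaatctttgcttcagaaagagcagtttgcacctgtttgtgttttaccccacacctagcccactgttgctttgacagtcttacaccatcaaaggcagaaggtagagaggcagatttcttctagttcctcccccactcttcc
Cd3e: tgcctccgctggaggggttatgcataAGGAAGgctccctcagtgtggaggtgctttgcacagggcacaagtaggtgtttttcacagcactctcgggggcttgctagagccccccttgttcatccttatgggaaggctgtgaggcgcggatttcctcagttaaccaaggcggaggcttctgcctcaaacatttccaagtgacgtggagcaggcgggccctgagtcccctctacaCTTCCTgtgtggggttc
Cd3e held 2 matches, at 224 and 17 bases before the start, Cd3d held 1 at 198 bases, and Cd3g held 0. Of 32851 windows of the same length, 29.5% held this sequence. TGTGGT, a core bound by RUNX factors, was found in none of the windows of the 6 genes with an entry (Cd3d, Cd3e, Cd3g, Cd8a, Cd5 and Bcl11b) on either strand, and 14% of all windows held it. These are exact letter matches only, and other forms of these core sequences were not searched. A link of these letters to the differences between groups was not tested.

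The first comparison was between the organs in WT mice. Cd3d and Cd3g, the delta and gamma chains, and Cd3e, the epsilon chain, were all lower in lung NK cells than in spleen NK cells, by 2.95 to 4.32-fold. Cd3d was at 16.2 and 17.4 CPM in lung and at 59.2 and 62.3 CPM in spleen. Its log2 fold change was -1.88 (SE 0.11, adjusted p = 1.8e-17 by edgeR). Cd3g was at 19.8 and 22.5 CPM in lung and at 61.4 and 60.9 CPM in spleen. The organs did not overlap for either gene, and the log2 fold change of Cd3g was -1.56 (SE 0.10, adjusted p = 7.2e-16 by edgeR). Cd3e was at 7.71 and 6.99 CPM in lung and at 32.0 and 32.5 CPM in spleen, with a log2 fold change of -2.11 (SE 0.16, adjusted p = 2.7e-14 by edgeR). Of the 5 genes tested, 3 were lower in lung and 0 were higher, where 29.3% of all genes tested were lower and 27.7% higher. All 3 were past 2-fold, where 15.9% of all genes were called and past 2-fold.

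In KO mice the same comparison gave 4 of 5 genes lower in lung and 0 higher, beside 31.7% and 33.9% of all genes. Cd3d was at 15.8 and 14.1 CPM in lung and at 72.1 and 64.4 CPM in spleen (log2 fold change -2.15, SE 0.10, adjusted p = 1.6e-20 by edgeR). Cd3g was at 15.8 and 17.8 CPM in lung and at 57.5 and 55.3 CPM in spleen (log2 fold change -1.71, SE 0.10, adjusted p = 9.8e-18 by edgeR). These 2 genes were past 2-fold, where 16.2% of all genes were. Cd3e was at 6.35 and 7.48 CPM in lung and at 7.51 and 11.1 CPM in spleen. All lung values were below all spleen values, but the nearest pair almost touched. Its log2 fold change of -0.60 (SE 0.17, adjusted p = 0.00289 by edgeR) was -0.08 without the deeper spleen KO library (adjusted p = 0.865) and -0.52 by DESeq2 (adjusted p = 0.131). Over 16 alternatives its adjusted p ran from 7.1e-04 to 0.865. The fourth gene was Cd28, described below.

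The 3 genes of the CD3 chains did not stand alone among transcripts that differed between the organs. In WT, the 10 B cell markers summed to 302 and 314 CPM in lung and to 605 and 618 CPM in spleen. Of these, 9 of 9 tested were lower in lung in both genotypes, where 29.3% of all genes were lower in WT and 31.7% in KO. Most of that sum was Ighm, at 289 and 303 CPM in WT lung and at 478 and 487 CPM in WT spleen. Ms4a1 had 0 reads in both lung WT libraries and was at 10.4 CPM (mean, n = 2) in WT spleen. The 12 dendritic cell markers summed to between 173 and 179 CPM in WT lung and between 550 and 557 CPM in WT spleen. Most of the lung sum was Itgax, at 125 and 126 CPM, and most of the spleen sum was Cd74, at 289 and 297 CPM. Flt3 was at 0 everywhere, and Xcr1, Clec9a, Siglech and Clec10a had 25, 8, 2 and 1 reads over all libraries. The part of these cells in the CD3 difference was not tested.

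The second question of the study was what the loss of Ccl5-PE changed in each organ. In lung, none of the CD3 chains passed the test. Cd3d had a log2 fold change of -0.16 (95% interval -0.45 to 0.13, adjusted p = 0.363 by edgeR). Cd3e had -0.09 (-0.52 to 0.34, adjusted p = 0.755 by edgeR). Cd3g had -0.29 (-0.55 to -0.02, adjusted p = 0.0668 by edgeR), and both of its KO libraries were below both WT libraries. The interval for Cd3e in lung did not reach its log2 fold change in spleen, given below. Of the 5 genes tested in lung, 0 were higher in KO and 1 (Cd28) was lower, beside 29.2% and 26.4% of all genes. None was past 2-fold, where 13.6% of all genes were.

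In spleen, Cd3e fell 3.03-fold while its neighbours Cd3d and Cd3g did not pass the test. Cd3e was at 32.0 and 32.5 CPM in WT and at 7.51 and 11.1 CPM in KO, which are 128 and 278 reads against 23 and 291 reads. The groups were far apart, and the lower KO value was within the range of the lung libraries. The log2 fold change was -1.60 (SE 0.12, adjusted p = 9.6e-14 by edgeR) and lay between -2.11 and -1.53 over the 16 alternatives, all of which kept the call. Cd3d had a log2 fold change of 0.11 (95% interval -0.04 to 0.25, adjusted p = 0.215 by edgeR) and Cd3g of -0.13 (-0.28 to 0.01, adjusted p = 0.120 by edgeR). With library totals in place of TMM scaling, Cd3g was called at -0.20 (adjusted p = 0.0203 by edgeR). Of the 5 genes tested in spleen, 1 was higher in KO (Cd28) and 1 was lower, beside 28.2% and 28.9% of all genes, and Cd3e alone was past 2-fold, where 10.6% of all genes were.

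**Figure D2:**
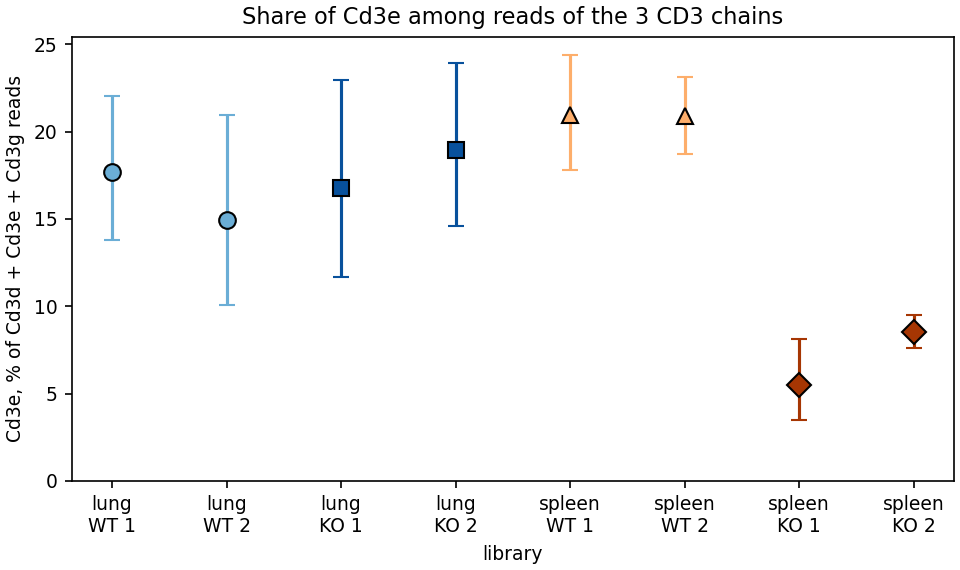
Share of Cd3e among the reads of Cd3d, Cd3e and Cd3g in each library, in percent, with exact 95% binomial intervals (counting error only). Both spleen KO libraries lie under 10%, and the other 6 lie between 14.9% and 20.9%.

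Because the 3 chains assemble together, the share of Cd3e among their reads was also computed, a measure that does not depend on the scaling of the libraries. It was 17.7% and 14.9% in WT lung, 16.8% and 19.0% in KO lung, and 20.9% in both spleen WT libraries. In spleen KO it was 5.48% (95% exact Clopper-Pearson interval 3.50 to 8.10%, 420 reads) and 8.52% (7.61 to 9.51%, 3415 reads). The spleen KO libraries were the only ones under 10%, and their intervals did not reach those of any other library. The intervals cover counting error only, and with 2 libraries a group an exact permutation test cannot give a p under 0.333. Exons of Cd3e overlap those of an antisense gene, Gm48719, by 135 bp. Gm48719 is not a symbol of the count files, and whether the counting used strand is not given in the sources used here.

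The KO effect itself differed between the organs for Cd3e. The difference, lung minus spleen, was 1.51 on the log2 scale (SE 0.25, adjusted p = 2.8e-06 by edgeR). For Cd3d it was -0.27 (adjusted p = 0.166 by edgeR) and for Cd3g -0.15 (adjusted p = 0.409 by edgeR), neither of which passed. With a GC offset the Cd3d difference was -0.40 and called (adjusted p = 0.0368 by edgeR). Of the 5 genes tested, 1 was higher by this difference (Cd3e) and 1 lower (Cd28), beside 32.5% and 29% of all genes. Cd3e was past 2-fold, where 24.8% of all genes were.

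**Figure D3:**
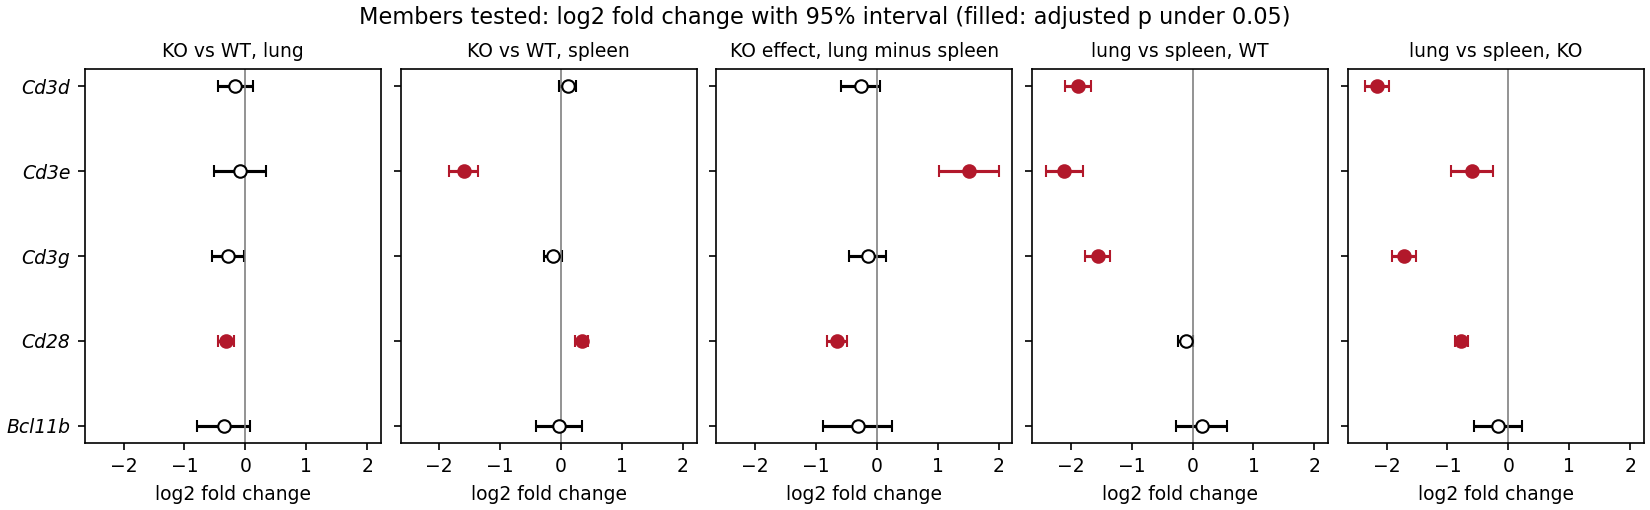
Log2 fold changes of the 5 genes tested in the 5 comparisons, with 95% intervals. Filled red points passed an adjusted p of 0.05. Cd3e moved only in spleen among the KO comparisons, Cd28 moved in opposite directions in the organs, and the 3 CD3 chains were lower in lung than in spleen.

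Cd28 (chr1:60716800-60773359), the costimulatory receptor that binds CD80 and CD86, was at 90.9 CPM or above in every library. It was at 123 and 124 CPM in WT lung, 90.9 and 105 CPM in KO lung, 133 and 133 CPM in WT spleen and 167 and 169 CPM in KO spleen. The KO libraries were below WT in lung and above WT in spleen, with no overlap in either organ. On the log2 scale it fell by 0.32 in lung (SE 0.06, adjusted p = 7.7e-05 by edgeR) and rose by 0.34 in spleen (SE 0.05, adjusted p = 1.8e-06 by edgeR). The difference between these effects was -0.66 (SE 0.08, adjusted p = 1.8e-08 by edgeR). These changes are 1.25-fold and 1.27-fold, and none of the 3 passed when a biological coefficient of variation of 0.2 was assumed. With a GC offset the changes were smaller, at -0.20 in lung and -0.39 for the difference, and 0.19 in spleen when the replicate block was added. Between organs, Cd28 was not called in WT (log2 fold change -0.11, adjusted p = 0.122 by edgeR) and was lower in lung in KO (-0.77, SE 0.06, adjusted p = 2.1e-14 by edgeR).

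The WT organ difference of Cd28 depended on the processing. It was -0.28 with a GC offset (adjusted p = 1.9e-04 by edgeR) and -0.22 with library totals (adjusted p = 0.00267 by edgeR), and its adjusted p ran from 9.0e-05 to 0.873 over 16 alternatives.

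The genes whose log2 CPM followed Cd28 most closely over the 8 libraries were Kars (Pearson's r = 0.991), Kdelc2 (0.986), Tubb5 (0.985), 2810006K23Rik (0.985) and Lage3 (0.985). The libraries fall into 4 groups and share their depth and scaling, and 322 of 8092 genes had an r over 0.9, so this is a description of the pattern only.

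Bcl11b (chr12:107910403-108003602), a transcription factor required for T-cell commitment, was low in every group. It was at 8.58 and 8.29 CPM in WT lung, 7.98 and 5.71 CPM in KO lung, 7.49 and 7.71 CPM in WT spleen and 5.22 and 7.81 CPM in KO spleen. Lung KO was below lung WT without overlap, and the spleen groups overlapped. It passed in none of the 5 comparisons, with log2 fold changes between -0.35 (lung KO against WT, 95% interval -0.79 to 0.08) and 0.15 (WT lung against spleen, -0.27 to 0.57).

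The coreceptor genes were near the limit of detection. Cd4 (chr6:124864692-124888221) had 0 and 0 reads in WT lung, 5 and 7 in KO lung, 2 and 2 in WT spleen and 0 and 3 in KO spleen. The lung KO reads were 0.981 CPM over the group, at least 3.89-fold higher than lung WT, set against a floor of 3 reads over the group. In a fit without the filter on low counts, this difference had an adjusted p of 0.00268 by edgeR. Cd8a (chr6:71373427-71379173) had 9 and 8 reads in WT spleen and 0 in both spleen KO libraries, which allows at most 0.103 CPM over the group. It was at least 13.2-fold lower in KO spleen (adjusted p = 9.2e-07 by edgeR without the filter). The bounds for genes with 0 reads in spleen KO, here and below, rest mainly on the deeper library, with 26482366 reads against 3132963. In the other library alone, 3 reads were 0.979 CPM. In lung, Cd8a had 1 and 0 reads in WT and 0 in both KO libraries. Cd8b1 (chr6:71322788-71337494), the beta chain of the CD8 heterodimer of conventional CD8 T cells, had 2 and 0 reads in WT lung, 0 and 2 in KO lung and 0 in all 4 spleen libraries. The 17 Cd8a reads of spleen WT thus came without any Cd8b1 read.

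Cd5 and Cd6, neighbours on chromosome 19 that encode related receptors of T cells, had 8 and 16 reads in all. Cd5 (chr19:10717116-10739002) had 1 and 1 reads in WT lung, 0 and 1 in KO lung, 2 and 3 in WT spleen and 0 and 0 in KO spleen. It was at least 3.87-fold lower in KO spleen than in WT spleen (adjusted p = 0.0225 by edgeR without the filter). Cd6 (chr19:10789341-10830058) had 3 reads in each WT library of both organs, 0 in both lung KO libraries, and 0 and 4 in KO spleen. It was at least 2.06-fold lower in KO lung than in WT lung (adjusted p = 0.0436 by edgeR without the filter), and in spleen the adjusted p was 0.222. These calls rest on 5 to 17 reads in a group and exist only without the filter.

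Some genes of the wider T-cell and marker lists, chosen here after their values were seen, had similar counts in spleen. Themis, needed for thymocyte selection, had 14 reads over spleen WT and 0 over spleen KO, at least 10.8-fold lower. Il23r, the interleukin-23 receptor of gamma-delta T17 cells, had 12 and 0 reads, at least 9.29-fold lower. Blk, a kinase of B cells and gamma-delta T cells, had 17 and 4 reads. All 3 had 0 reads in every lung library. Of the 6 genes of the gamma-delta T cell list that passed the filter, 3 were higher (Trdc, Trdv4 and Maf) and 1 lower (Tcrg-C2) in KO spleen. The variable segments Tcrg-V, which are not in that list, summed to 5.50 and 6.19 CPM in WT spleen. In KO spleen they summed to 1.63 and 2.45 CPM. Over all genes tested, 28.2% were higher and 28.9% lower there. Whether these reads and the Cd3e and Cd8a reads came from the same cells was not tested.

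Constant segments of the T-cell receptor loci were abundant although the gate removed cells with a surface alpha-beta receptor. Trbc1, a constant segment of the beta chain, was at 268 and 256 CPM in WT lung, 202 and 217 CPM in KO lung, 270 and 260 CPM in WT spleen and 339 and 328 CPM in KO spleen. Trdc, the constant segment of the delta chain, was between 247 and 431 CPM in every library. Trac, the constant segment of the alpha chain, was at 23.5 and 21.8 CPM in WT lung, 9.62 and 10.5 CPM in KO lung, 19.0 and 21.3 CPM in WT spleen and 30.0 and 27.5 CPM in KO spleen. Per kilobase of exon, Trbc1 was at 349 and Trac at 24.2 RPKM (mean, n = 2) in WT lung. Trbc1 and Trbc2, and the gamma constant segments Tcrg-C1, Tcrg-C2 and Tcrg-C3, are near-identical copies. Reads that align to several copies could be left out as not unique, so their single values are uncertain. Exons of Trdc overlap those of Trdv5 and Gm43434 on the opposite strand.

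Variable segments, which are joined to a constant segment only in a rearranged transcript, had fewer reads than the constant segments of the same locus. Over all libraries 283 reads fell on the Trav segments, 423 on Trbv and 196 on Tcrg-V, against 1464 on Trac, 25491 on Trbc and 4169 on Tcrg-C. The Trav reads were 7.14% to 40.7% of the Trac reads, with both spleen WT libraries highest, and the Tcrg-V reads were 2.06% to 8.18% of the Tcrg-C reads. The Trbv reads were 0.474% to 3.75% of the Trbc reads, and both extremes are WT libraries, of lung and of spleen. In lung, Trbv was at 1.74 and 3.11 CPM in WT and at 3.48 and 2.45 CPM in KO. In spleen it was at 14.5 and 12.5 CPM in WT and at 7.83 and 6.63 CPM in KO, so that spleen WT was highest, spleen KO next and both lung groups lowest, without overlap between organs. The joining segments Trbj held 7062 reads, 26.2% to 34.0% of the Trbc reads. The delta locus differed, with 14819 reads on Trdv, 51.1% to 90.5% of those on Trdc. Nearly all of these were Trdv4 (9004 reads) and Trdv2-2 (5272 reads), and without these and Trdv5 there were 134.

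**Figure D4:**
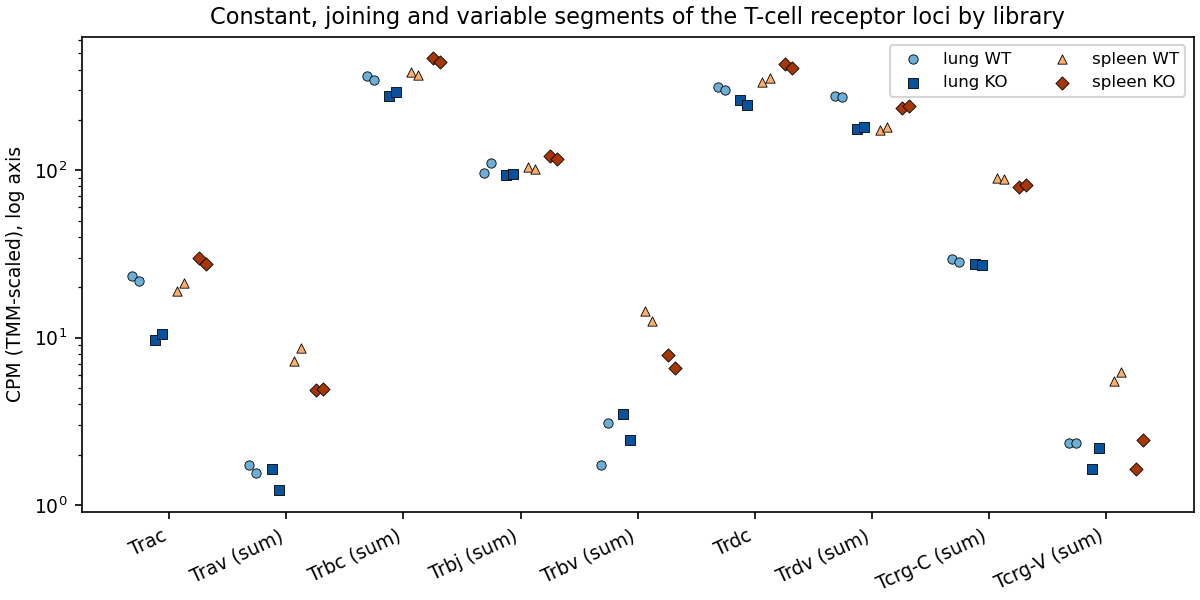
TMM-scaled CPM on a log axis of constant (Trac, Trbc, Trdc, Tcrg-C), joining (Trbj) and variable (Trav, Trbv, Trdv, Tcrg-V) segments, 1 symbol per library. Trbv lies far below Trbc in every library, and Trav, Trbv and Tcrg-V are highest in WT spleen.

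Of the 7 constant segments tested, 4 were lower in KO lung than in WT lung and 0 higher, and in spleen 3 were higher and 1 lower. The shares of all genes were 29.2% higher and 26.4% lower in lung, and 28.2% and 28.9% in spleen. Trac fell by 1.18 on the log2 scale in KO lung (SE 0.15, adjusted p = 1.8e-08 by edgeR) and rose by 0.44 in KO spleen (SE 0.11, adjusted p = 5.2e-04 by edgeR). The Trav segments did not rise with Trac in spleen, where they summed to 7.24 and 8.65 CPM in WT and to 4.90 and 4.90 CPM in KO. In lung they summed to 1.74 and 1.55 CPM in WT and to 1.64 and 1.22 CPM in KO. The KO effects on Trac differed by -1.62 between lung and spleen (SE 0.18, adjusted p = 8.4e-10 by edgeR). Trbc1 fell by 0.32 in KO lung and rose by 0.33 in KO spleen, and Trdc fell by 0.28 and rose by 0.26 (adjusted p between 1.2e-07 and 7.0e-06 by edgeR). Trbc2 fell by 0.33 in KO lung (adjusted p = 1.6e-04 by edgeR) and was not called in spleen (0.05, adjusted p = 0.461). When the coefficient of variation was set to 0.2, the calls of Trbc1, Trbc2 and Trdc in either organ and of Trac in spleen were lost.

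The gamma constant segments were lower in lung, as the CD3 chains were. Tcrg-C4 was at 20.5 and 21.0 CPM in WT lung and at 63.4 and 61.3 CPM in WT spleen, a log2 fold change of -1.59 (SE 0.10, adjusted p = 1.9e-16 by edgeR), and -1.69 in KO. Tcrg-C1 and Tcrg-C2 had log2 fold changes of -1.93 and -1.57 in WT and were also called lower in KO. Without the deeper spleen KO library these KO organ values were -0.62 and -0.82 and not called (adjusted p = 0.240 and 0.0750 by edgeR), where Tcrg-C1 had been at -1.40. In spleen, Tcrg-C2 was at 15.5 and 17.1 CPM in WT and at 6.85 and 7.85 CPM in KO. It fell by 1.10 (SE 0.15, adjusted p = 8.8e-08 by edgeR), whereas Tcrg-C4 and Tcrg-C1 were not called there (0.06 and -0.22). Without the deeper spleen KO library, Tcrg-C1 was at -0.98 and called (adjusted p = 0.0234 by edgeR). Tcrg-C3 had 3 reads in all. Over the 7 segments, 5 were lower in lung in WT and 7 in KO, beside 29.3% and 31.7% of all genes, and 0 were higher.

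Cd247, the zeta chain that NK receptors also use, was at 307 and 330 CPM in WT lung, 317 and 310 CPM in KO lung, 297 and 288 CPM in WT spleen and 293 and 276 CPM in KO spleen. It was not called in KO against WT in either organ (log2 fold changes -0.02 and -0.06, adjusted p = 0.789 and 0.311 by edgeR). Between organs its log2 fold change was 0.12 in WT (adjusted p = 0.0309 by edgeR) and 0.16 in KO (adjusted p = 0.00268 by edgeR). The WT value was 0.012 with library totals (adjusted p = 0.841 by edgeR), 0.051 with a GC offset (adjusted p = 0.383 by edgeR) and 0.093 without spleen WT library 2 (adjusted p = 0.228 by edgeR). It was 0.086 without lung WT library 2 (adjusted p = 0.173 by edgeR) and 0.19 without lung WT library 1. The KO value was 0.11 without the deeper spleen KO library (adjusted p = 0.176 by edgeR), and DESeq2 called neither (adjusted p = 0.0840 and 0.0504).

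Among receptor-proximal signalling genes, 25 of 26 listed were tested. In KO against WT, 13 were higher and 6 lower in lung, and 4 higher and 14 lower in spleen, where 55.6% of all genes were called in lung and 57.1% in spleen. The list had a median log2 fold change of 0.18 in lung and -0.18 in spleen, against 0.02 and 0 over all genes. Zap70, the kinase that binds the zeta chain, was at 91.5 and 87.8 CPM in WT lung and at 134 and 142 CPM in KO lung. In spleen it was at 134 and 132 CPM in WT and at 73.5 and 84.6 CPM in KO, and it fell by 0.68 (SE 0.06, adjusted p = 5.1e-12 by edgeR). Its KO effect differed between the organs by 1.30 (SE 0.09, adjusted p = 2.0e-15 by edgeR). In the organ comparisons, 7 genes of the list were higher and 12 lower in lung in WT, and 15 higher and 5 lower in KO. Of all genes, 57% were called between the organs in WT and 65.6% in KO.

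Among the 12 costimulatory and inhibitory receptors, 9 were tested, of which 5 were higher and 3 lower in KO in each organ, against 55.6% and 57.1% of all genes called in lung and spleen. Ctla4, which competes with CD28 for its ligands, had 0 reads in all 4 WT libraries. It was at 2.87 and 3.13 CPM in KO lung and at 1.63 and 1.38 CPM in KO spleen, in spleen at least 5.89-fold higher than WT. Lag3, an inhibitory receptor, rose by 1.72 in KO lung and fell by 1.60 in KO spleen (adjusted p = 7.2e-05 and 5.3e-05 by edgeR). Its lung WT libraries were at 1.12 and 3.11 CPM, and without the first of them the lung value was 0.91 (adjusted p = 0.0773 by edgeR). Between organs, 2 were higher and 4 lower in lung in WT, and 3 higher and 6 lower in KO. The shares of all genes called were 57% in WT and 65.6% in KO. Cd27 was lower in lung in WT by a log2 fold change of -1.01 (adjusted p = 1.2e-16 by edgeR).

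Of the 20 T-lineage transcription factors, 18 were tested. In KO, 6 were higher and 5 lower in lung, and 3 higher and 8 lower in spleen, near the 55.6% and 57.1% of all genes called. Id3, an inhibitor of E proteins, rose by 2.31 in KO lung and fell by 1.04 in KO spleen (adjusted p = 3.1e-08 and 2.0e-04 by edgeR). The spleen value was -0.46 without spleen WT library 2 (adjusted p = 0.334 by edgeR) and -1.06 without the deeper spleen KO library (adjusted p = 0.0547 by edgeR), and DESeq2 did not call it (adjusted p = 0.0584). Tcf7, which encodes TCF-1, was lower in lung than in spleen, with log2 fold changes of -1.33 in WT and -1.10 in KO (adjusted p = 1.1e-19 and 3.2e-19 by edgeR). Between organs, 4 were higher and 6 lower in lung in WT, and 8 higher and 5 lower in KO. The shares of all genes called between organs were 57% in WT and 65.6% in KO.

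Marker lists of other cells that the gate could hold were counted in the same way. Of the gamma-delta T cell list, 13 genes were listed and 6 tested, and the sum ran from 419 to 668 CPM, most of it Trdc and Trdv4. Of its other genes, Tcrg-C4 (up to 67.2 CPM), Maf (19.2 to 31.3 CPM), Tcrg-C1 and Tcrg-C2 were tested, whereas over all libraries Il17a had 0 reads, Sox13 1 and Cd163l1 8. In KO, 0 were higher and 3 lower in lung, beside 29.2% and 26.4% of all genes. In spleen 3 were higher and 1 lower, beside 28.2% and 28.9% of all genes. Of the 9 NKT cell genes, 5 were tested, and Trav11 and Trav11d, the segments of the invariant receptor, had 0 reads. In KO, 1 was higher and 4 lower in lung, and 3 higher and 1 lower in spleen, beside the same shares of all genes. Zbtb16, which encodes PLZF, had log2 fold changes of -0.59 and -0.57 in lung and spleen (adjusted p = 0.0111 and 0.0301 by edgeR), and neither call held with DESeq2 (adjusted p = 0.163 and 0.212).

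The 9 markers of type 1 innate lymphoid cells summed to between 156 and 157 CPM in WT lung and between 116 and 117 CPM in KO lung, and to between 201 and 236 CPM in spleen. In KO, 0 were higher and 2 lower in lung, and 2 higher and 3 lower in spleen. For this list and those below, the shares of all genes were 29.2% higher and 26.4% lower in lung, and 28.2% and 28.9% in spleen. The NK cell list was lower in KO for 8 of 12 genes in lung and higher for 1, and higher for 11 of 12 in spleen and lower for 1, beside the shares of all genes given above. The gene that went the other way in both organs was Prf1, which encodes perforin, with log2 fold changes of 0.74 and -0.48. The NK cell list, most of it Gzma and Nkg7, summed to between 54501 and 56345 CPM in WT lung against 43453 to 43868 CPM in KO. In spleen its sum was between 40165 and 40869 CPM in WT against 52546 to 55177 CPM in KO. The dendritic cell list was higher in KO lung for 4 of 6 genes tested and lower for 1, and in KO spleen higher for 2 and lower for 0. The B cell list was higher in KO lung for 6 of 9 and lower for 1, and in KO spleen higher for 4 and lower for 2. The myeloid list summed to between 40.1 and 43.9 CPM in lung and between 20.8 and 29.0 CPM in spleen. It was higher for 1 and lower for 3 of 6 in KO lung, and higher for 2 and lower for 0 in KO spleen. The part of any of these cells in the changes of Cd3e, Cd28 and Trac was not tested.

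Levels of different genes were compared per kilobase, as RPKM over the union of a gene's exons (means, n = 2). In lung WT the order was Cd28 (20.1 RPKM), Cd3d (9.23), Cd3g (6.47), Cd3e (1.80) and Bcl11b (1.04). The SD of the 2 libraries was below the gap between each pair of neighbours in this order. In spleen WT, Cd3d (33.5 RPKM) came before Cd28 (21.7), Cd3g (18.7), Cd3e (7.90) and Bcl11b (0.937). In spleen KO, Cd3e fell to 2.29 RPKM, beside 37.6 for Cd3d and 17.2 for Cd3g. The place of Cd3g depended on the length used. Per kilobase of the longest coding transcript, a choice added after the data had been seen, Cd3g was at 59.8 and Cd3d at 37.6 RPKM in WT spleen, and at 20.7 and 10.4 RPKM in WT lung. Cd3e stayed the lowest of the CD3 chains under both lengths in all 4 groups.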

How the data were processed

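Libraries were made with the NEBNext Ultra RNA kit from RNA of sorted NK cells and sequenced with reads of 50 bp. The authors aligned the reads to mm10 and counted them on genes, and the deposited files hold 1 raw read count for each symbol, not normalized. The submitters' processing notes name HISAT2 2.1.0 and HTSeq 0.11.1. Annotation and strand setting of the counting are not given in the sources used here. Reads on no feature were 52.7% to 55.0% of the uniquely aligned reads and, like those the counter set aside as ambiguous, unaligned or not unique, were left out. Duplicate deposits were checked: replicate counts varied 1.23 to 1.48 times as much as counting alone.

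In R 4.3.3, counts were tested with edgeR 4.0.16 (filterByExpr, TMM, quasi-likelihood, 1 mean per group over all 8 libraries, adjustment by Benjamini and Hochberg), with limma 3.58.1 loaded and DESeq2 1.42.0 as an alternative. A second rule also asked for 2-fold. The steps were tested on simulated data, in genes that averaged over 50 reads, with a spread between replicates like the one estimated here. That read limit was raised after a first run recovered fewer changed genes than required. The simulation therefore covers neither a larger spread nor genes with few reads. Exon lengths and positions came from GENCODE M21 (GRCm38): 46394 symbols matched by name, 585 by synonym and 1342 not. Promoter windows came from RefSeq (GRCm38.p6), with entries for 6 of the 10 genes. Groups come from the sample titles.

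The members, the gene lists and the rule for named genes were chosen with earlier results of these data known. The rule names the 10 members, the counted constant segments, Cd247, up to 4 genes per other list with the largest called change (not all of them are given), the 5 genes most like the most abundant member, and Ccl5. Some results on genes of the lists are not reported here. Symbols of the gamma constant segments of the Trgc form and Carmil2 were not in the files. Alternatives were scaling by the upper quartile, by RLE or by totals, leaving the filter out, a minimum of 10 counts per library, DESeq2, the likelihood ratio test, an assumed biological coefficient of variation of 0.2, only the compared libraries, a replicate block, a GC offset (spline with 5 degrees of freedom), both together, and leaving out each library. The level per longest coding transcript was added after the data had been seen. Intervals of log2 fold changes come from the SE of the edgeR fit and so include its estimate of the spread between libraries. The intervals of the Cd3e share and the floors (3 reads) cover counting error only.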

Additional observations from a re-analysis of the deposited data

Results flagged for a closer look

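For 6 of the genes named, the KO effect differed between lung and spleen by the test of the difference itself (edgeR's quasi-likelihood contrast, lung minus spleen, adjusted over 12595 genes). On the log2 scale the difference was 1.51 for Cd3e (adjusted p = 2.8e-06), which fell in spleen KO and was not called in lung. It was -0.66 for Cd28 (adjusted p = 1.8e-08), -1.62 for Trac (adjusted p = 8.4e-10), -0.65 for Trbc1 (adjusted p = 1.3e-10), -0.39 for Trbc2 (adjusted p = 5.1e-04) and -0.53 for Trdc (adjusted p = 4.9e-09). Of these, Trac, Trbc1, Trdc and Cd28 were lower in lung KO and higher in spleen KO in both libraries of each group. When the biological coefficient of variation was set to 0.2, the differences of Cd28, Trbc1, Trbc2 and Trdc were not called (adjusted p = 0.283, 0.294, 0.562 and 0.399 by edgeR). By this contrast 61.6% of all genes tested differed.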

How the results depend on the processing

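With 2 libraries per group, the shallowest of which limits a member at 3 reads to 0.979 CPM, changes of genes with few reads were not detectable under the filter. The fall of Cd3e in spleen KO, its difference between organs and the organ differences of Cd3d and Cd3g kept direction and call under every alternative run. Without a filter, 3 members were called in lung KO against WT (2 past 2-fold), 4 in spleen (3 past 2-fold), and 2 were past 2-fold in the difference, the added calls being the low-count members. With an assumed coefficient of variation of 0.2, 0 were called in lung, 1 in spleen and 1 in the difference, and Cd28 was lost. The cause of other shifts was not tested. Equal replicate numbers are not said to pair libraries, and deviations of equally numbered libraries correlated between -0.0758 and 0.169. With the replicate block 1, 2, 2, 3 and 4 members were called in the 5 comparisons, as without it, and Cd3e in spleen KO was -1.63.

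Signs turned only for log2 fold changes that were not called. With library totals, Cd3e in lung KO was 0.0048, Cd3g in the difference 0.0091, Tcrg-C4 0.054 in lung KO, -0.0056 in spleen KO and 0.059 in the difference, Cd247 in lung KO 0.076 and Trbc2 in spleen KO -0.014. With a GC offset, Bcl11b in spleen KO was 0.0031, Tcrg-C4 0.028, -0.057 and 0.085 in lung KO, spleen KO and the difference, Cd247 in lung KO 0.014 and Trbc1 between WT organs 0.059. The offset with the replicate block gave 0.0046 for Bcl11b, 0.047, -0.045 and 0.092 for Tcrg-C4, 0.020 for Cd247 and 0.054 for Trbc1. Trbc1 between WT organs was 0.011 with RLE scaling and 0.0064 with DESeq2. Leaving out 1 library gave, from lowest to highest, -0.24 to 0.0029 for Cd3e in lung KO. For Bcl11b it gave -0.55 to 0.033 in spleen KO, -0.53 to 0.19 in the difference and -0.38 to 0.36 between KO organs, and -0.55, 0.19 and 0.36 came without the deeper spleen KO library. For Cd247 it gave -0.080 to 0.024 in lung KO, -0.080 to 0.0019 in spleen KO and -0.028 to 0.076 in the difference, and for Trbc1 -0.040 to 0.032 between WT organs.

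Over all genes, these counts, shares and medians moved. With DESeq2, 4507 genes were called in lung KO against 7000, and 4165 in spleen KO against 7195. With the assumed coefficient of variation, 1557, 1144, 2017, 2011 and 2316 were called in the 5 comparisons against 7000, 7195, 7753, 7185 and 8259. Without the deeper spleen KO library, 4393 were called in spleen KO. With library totals, the percent of calls that were higher moved from 52.5 to 63.3 in lung KO, from 52.9 to 63.5 in the difference and from 48.6 to 36.9 between WT organs, and the median log2 fold change of all genes moved to 0.19 in the difference and -0.12 between WT organs. With the assumed coefficient of variation that percent was 66.1 in lung KO, 31.5 in spleen KO (from 49.3), 69.7 in the difference and 65.6 between KO organs (from 51.7). Genes called and past 2-fold were 2572, 2278 and 3491 without a filter in lung KO, spleen KO and between KO organs, against 1707, 1334 and 2045, and 519, 373, 1783, 632 and 715 in the 5 comparisons with at least 10 counts in every library, against 1707, 1334, 3126, 2006 and 2045.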
